A study of Rattus norvegicus with 24 samples.

Results

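SKF-81297, an agonist of the D1-like dopamine receptors, was compared with vehicle in wounded rat brain. The comparison used the 8 libraries titled SKF and the 8 titled Vehicle, 16 of the 24 libraries in the series, treated as unpaired. It covered every gene that passed a filter on low counts, 14421 of the 29539 in the table. The other 8 libraries are titled Normal Control and serve here as a reference level.

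All samples were Rattus norvegicus brain, from which poly(A) RNA was sequenced with a directional kit. The series description places the agonist in a model of traumatic brain injury made by a stab wound of the forebrain. SKF was injected into the peritoneum 1 time a day on 3 days, and the first dose followed the wound by 1 h. The vehicle group is named by that word alone and is read here as wounded animals given the carrier. The labels state no strain, sex, age or region of the brain, nor when tissue was taken. Normal control is not called sham-operated there, and no group received SKF without a wound. Whether each sample came from its own animal is not stated, so the p values measure the spread between these samples, which may be technical.

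Dopamine receptors of the D1-like family, Drd1 and Drd5, couple to stimulatory G proteins and raise cyclic AMP, which activates protein kinase A and the transcription factor CREB. Drd1 is abundant in the projection neurons of the striatum, and D1-like receptors have also been described on immune cells. A stab wound breaks blood vessels and draws neutrophils and then monocytes from the blood, while resident microglia and astrocytes become reactive. The genes of these cells and signals, the receptors and second messengers of the agonist, and the neurons and vessels around a wound were the groups examined.

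Inflammatory and blood-cell genes mostly had lower values in the SKF libraries than in vehicle, but no single gene passed edgeR's test after adjustment. Among 231 tested genes of 20 immune lists, 197 had a negative log2 fold change (85.3%), against 49.5% of all genes tested. At an unadjusted p under 0.05, 51 of the 231 were lower in SKF (22.1%) and 0 were higher, whereas 2.82% of all genes were lower and 2.14% higher. The median log2 fold change over the 231 genes was -0.18, and over all genes 0.00. These shares of all genes, 2.82% lower and 2.14% higher, are the background for the counts of each list below. Genes within such lists vary together across libraries, so the 51 are not 51 separate results. Of 80 tested genes in 6 neuronal lists, 17 had a negative log2 fold change, 0 were lower at an unadjusted p under 0.05 and 1 was higher, a smaller share than the 2.14% of all genes, with a median of 0.08. The 17 became 9 without Vehicle 5 and 27 without Vehicle 2, and the 1 became 3 without Vehicle 7. The lists were joined in these groups after their values had been seen.

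With edgeR's quasi-likelihood test, the share of genes with an adjusted p under 0.05 was 0%, and the smallest adjusted p was 0.485. At an unadjusted p under 0.05 there were 715 genes, 4.96% of those tested, where a flat spread of p would give 721.05. Of the 715, 407 were lower in SKF and 308 higher. On the scale of log2(TPM + 1), whose median gene stood at -0.02, the split was 565 lower and 189 higher. The lower genes had the larger differences, with a median log2 fold change of -0.34 against 0.19 among the higher genes. A difference of at least 1.5-fold was reached by 99 of the lower genes and 17 of the higher. DESeq2, run on the same counts, gave an adjusted p under 0.05 to 6 genes. These were Tec, S100a9, Fcgr2a_2 and 2 genes with Ensembl identifiers alone, all lower in SKF, and Tmem114, which was higher. The groups did not overlap at all for 2 genes, Msto1 and Rarg, both lower in SKF, which is 0.0139% of genes tested, while 0% did so in the higher direction.

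**Figure D1:**
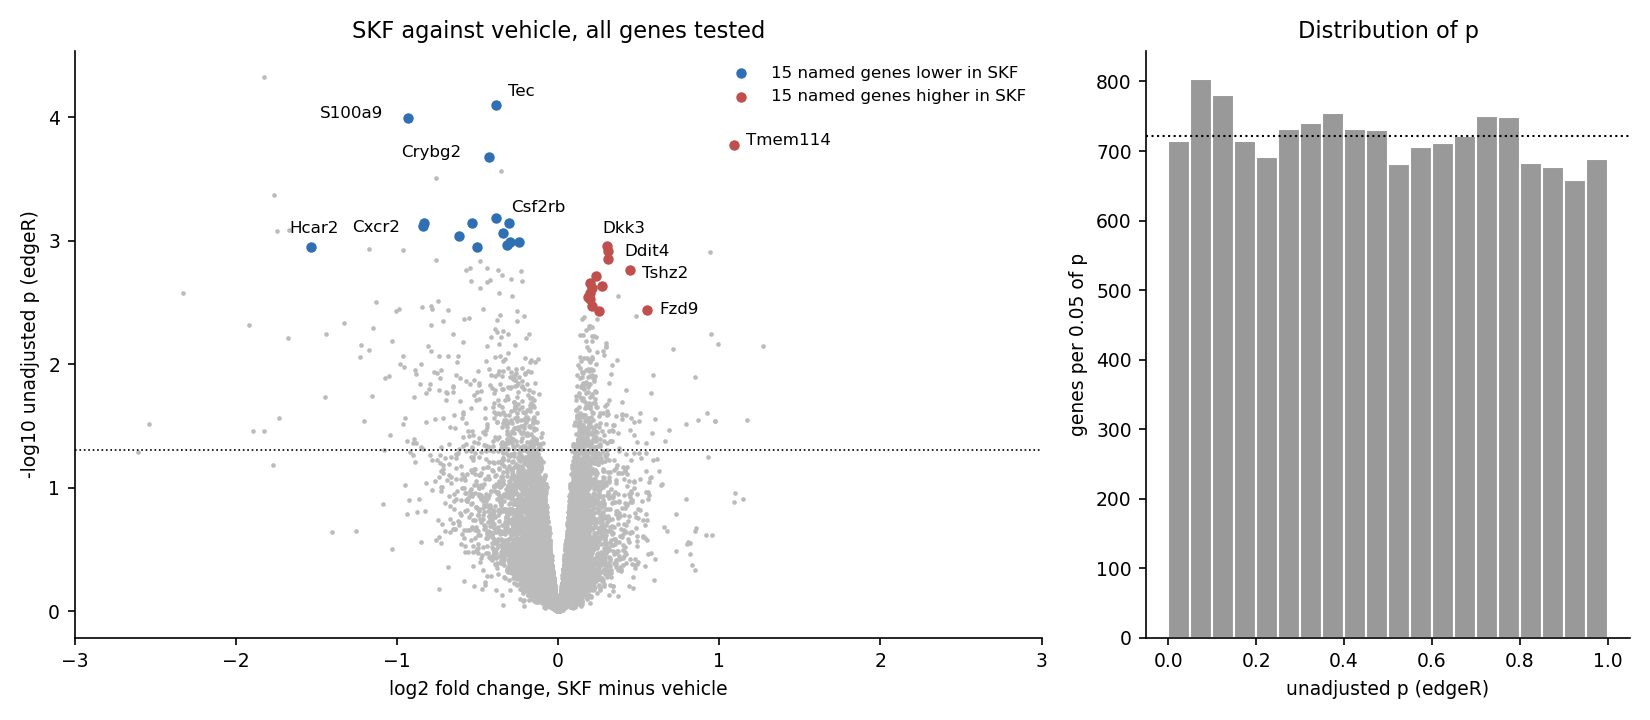
The left plot sets the edgeR log2 fold change of each of the 14421 genes (x axis, SKF minus vehicle) against -log10 of its unadjusted p (y axis), with the 15 named genes of each direction coloured and a dotted line at 0.05. The right plot counts genes per 0.05 of p, and its first bar, 715 genes, lies at the dotted line of a flat spread at 721.05.

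Library depth and composition overlapped between the groups. Total counts ranged from 8911339 to 12383368 in vehicle and from 9727354 to 11884172 in SKF. The mean was 10269800 ± 1137540 (SD, n = 8) in vehicle and 10998500 ± 688267 in SKF, with a 2-sided exact permutation p of 0.143 (0.572 adjusted over 4 library measures). The mitochondrial share of counts was 8.07% ± 0.660 in vehicle and 8.27% ± 0.811 in SKF (exact permutation p = 0.595, adjusted p = 0.809). The number of genes detected and the share of the 10 most counted genes also gave an adjusted p of 0.809.

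Tec and S100a9 had the smallest p values among the named genes, and both are expressed in myeloid cells, the lineage of neutrophils and macrophages. Tec is a cytoplasmic tyrosine kinase of blood cells. Its level in CPM, read counts scaled to the normalised library size, was 13.9 at the lowest, 15.7 at the median and 18.1 at the highest of the 8 vehicle libraries, and 11.0, 11.9 and 14.5 in SKF. All 8 SKF libraries were below the vehicle median and 7 were below every vehicle library. The log2 fold change was -0.39 ± 0.08 (SE, edgeR unadjusted p = 7.93e-05, adjusted p = 0.485), and DESeq2 gave an adjusted p of 0.0449. The normal control median of Tec was 11.1 CPM, so Tec RNA was also present in brain of that group. Vehicle 1, the vehicle library with the most S100a9, had the least Tec of the vehicle group. Which cells the Tec RNA came from was not tested.

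S100a9 encodes a calcium-binding protein that is abundant in neutrophils and signals danger to other immune cells. It measured 12.7, 18.2 and 40.2 CPM (lowest, median and highest) in vehicle, 7.21, 10.5 and 16.0 in SKF, and 0.332 at the median of normal control. Every SKF library was under the vehicle median and 7 were under every vehicle library. The log2 fold change was -0.93 ± 0.20 (edgeR unadjusted p = 1.01e-04, adjusted p = 0.485), and -0.73 without Vehicle 1, the library with the most S100a9. Tmem114, a membrane protein of the claudin-like family, had the smallest p among the higher named genes. It measured 0.899, 1.84 and 3.14 CPM in vehicle and 1.63, 4.07 and 8.28 in SKF, with 4.14 at the median of normal control. Of the 8 SKF libraries, 6 were above every vehicle library and 1 was below the vehicle median. Its log2 fold change was 1.09 ± 0.25 (edgeR unadjusted p = 1.69e-04, adjusted p = 0.608).

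The 250 bases before the start site of Tec, S100a9 and Tmem114, the 3 genes with symbols of their own that DESeq2 called, are printed below from RefSeq's table on build GRCr8, in the direction of the gene. Capitals mark matches, on either strand, to the CRE half-site TGACG bound by CREB, to TTGCNNAA of the C/EBP family, to the PU.1 core GAGGAA and to the NF-kB consensus.
Tec, chr14:35706620-35706869, plus strand: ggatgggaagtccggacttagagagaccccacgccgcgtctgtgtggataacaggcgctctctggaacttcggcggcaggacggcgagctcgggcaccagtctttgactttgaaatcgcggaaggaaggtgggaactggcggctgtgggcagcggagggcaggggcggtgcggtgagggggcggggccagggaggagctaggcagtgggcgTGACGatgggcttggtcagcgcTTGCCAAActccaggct
S100a9, chr2:178490623-178490872, minus strand: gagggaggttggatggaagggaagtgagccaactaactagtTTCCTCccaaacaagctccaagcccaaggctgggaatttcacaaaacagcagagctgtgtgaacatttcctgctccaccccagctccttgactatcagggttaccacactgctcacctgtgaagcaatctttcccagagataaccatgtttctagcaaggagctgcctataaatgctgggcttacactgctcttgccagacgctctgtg
Tmem114, chr10:7676130-7676379, plus strand: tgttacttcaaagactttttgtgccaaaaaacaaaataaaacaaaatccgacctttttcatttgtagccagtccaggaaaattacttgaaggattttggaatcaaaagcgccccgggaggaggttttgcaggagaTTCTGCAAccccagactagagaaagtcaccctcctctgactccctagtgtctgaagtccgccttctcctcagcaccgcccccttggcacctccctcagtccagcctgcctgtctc
The CRE half-site of Tec begins at position -39 and its C/EBP match at -17, counted from the start site. In S100a9 the PU.1 core begins at -209, read on the other strand, and in Tmem114 a C/EBP match begins at -115.

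Promoters of this length were found for 10657 of the genes tested, for 11 of the 15 named genes that were lower and for 12 of the 15 that were higher. The CRE half-site was in 27.0% of the 10657, in 5 of the 11 and in 3 of the 12. The C/EBP letters were in 7.60% of the 10657 and in 1 gene of each set, and the PU.1 core in 22.6%, in 3 of the 11 and in 2 of the 12. A match to the NF-kB consensus was in 4.33% of the 10657, in 2 of the 11 (Maml1 and Nfkbie) and in 0 of the 12. These are matches of letters and not measured binding sites.

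Neutrophil markers were lower in SKF as a group. Of 25 markers 13 passed the filter on low counts, and 12 of the 13 had a negative log2 fold change. The median was -0.50, and -0.38 without Vehicle 1. At an unadjusted p under 0.05, 5 of the 13 were lower and 0 higher. The granule enzymes Elane, Ctsg and Mpo were among the 12 markers under the filter. Markers that pass a filter through high levels in wounded tissue are not the whole list, and the counts describe the 13 alone. In bulk tissue, fewer cells of a type and less RNA per cell cannot be told apart.

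S100a8, the partner of S100a9, measured 6.46, 9.29 and 18.4 CPM in vehicle and 3.93, 6.61 and 8.80 in SKF, with a log2 fold change of -0.68 ± 0.24 (edgeR unadjusted p = 0.00867). Cxcr2, the receptor by which neutrophils follow CXC chemokines, measured 5.85, 9.81 and 18.9 CPM in vehicle and 4.12, 5.23 and 8.49 in SKF, a difference of -0.84 ± 0.22 on the log2 scale (edgeR unadjusted p = 7.62e-04, adjusted p = 0.656). For both genes all 8 SKF libraries were under the vehicle median, although the ranges overlapped. Without Vehicle 1 the log2 fold changes of S100a8 and Cxcr2 were -0.52 and -0.68. Csf3r, the receptor of granulocyte colony-stimulating factor, measured 10.6, 19.5 and 24.9 CPM in vehicle against 9.08, 13.6 and 17.7 in SKF (log2 fold change -0.50 ± 0.14, edgeR unadjusted p = 0.00113). In normal control the medians of S100a8, Cxcr2 and Csf3r were 0.289, 0.141 and 3.09 CPM, below every vehicle and SKF library.

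The score of the neutrophil list, the mean log2 CPM of its 13 tested members, ran from 2.69 to 3.73 in vehicle with a median of 3.00, and from 2.33 to 2.84 in SKF with a median of 2.71. All 8 SKF scores were below the vehicle median and 4 were below every vehicle library. Vehicle 1 had the highest score and Vehicle 5 the lowest of the vehicle group. SKF and normal control were both set against the same vehicle libraries, so the level in normal control is given here only beside the others: its scores ran from -0.85 to -0.09.

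**Figure D2:**
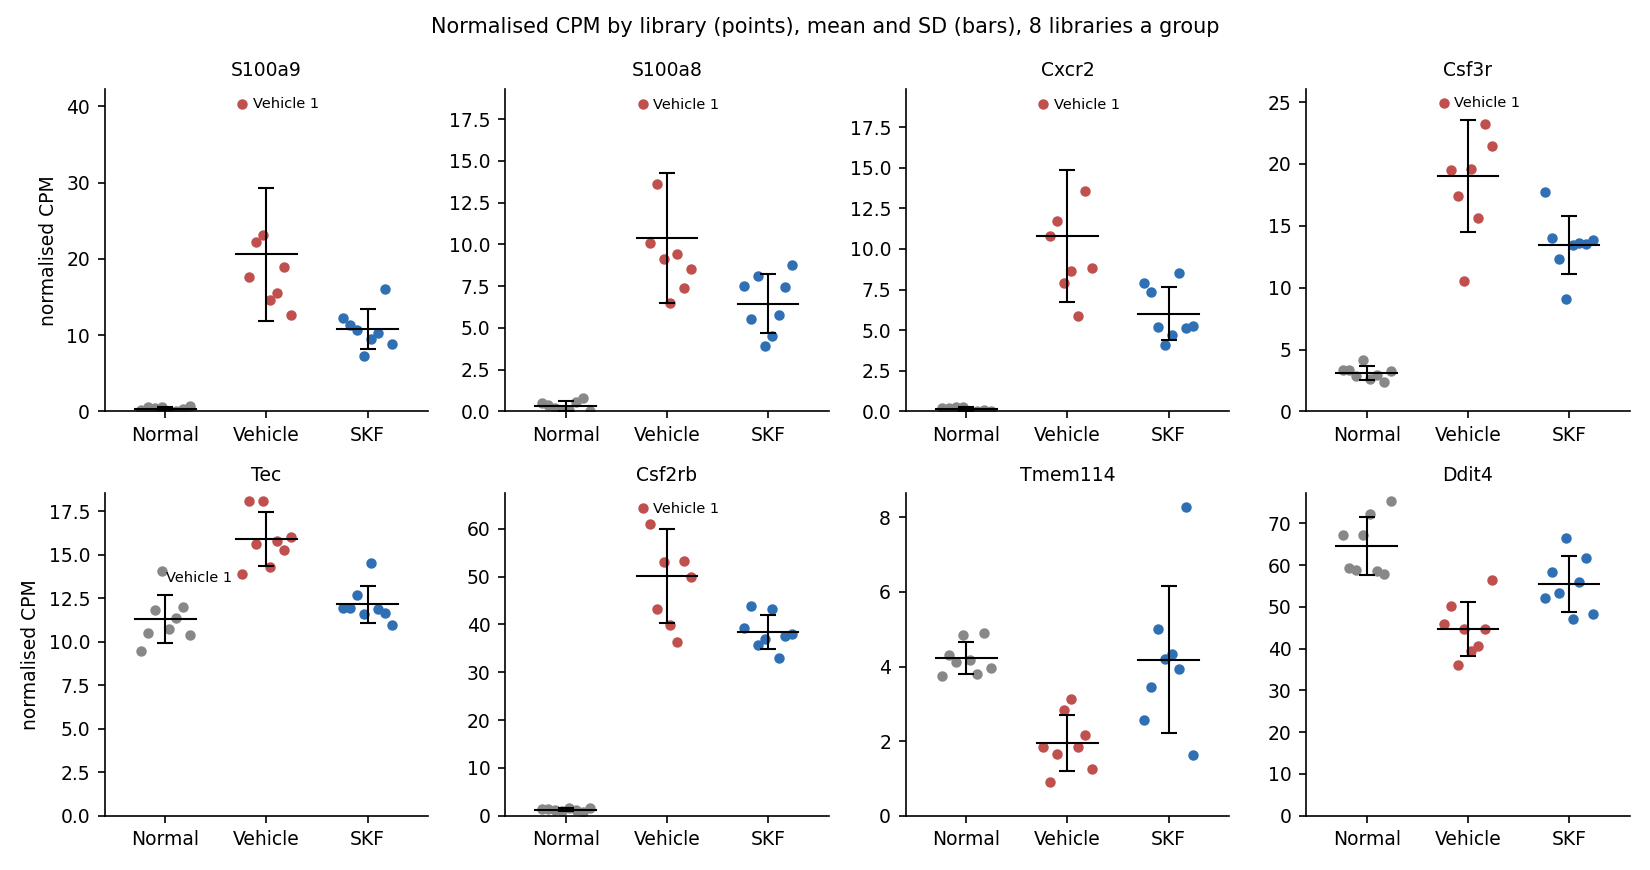
Each plot shows normalised CPM (y axis) of 1 gene in each of the 8 libraries of normal control, vehicle and SKF (points), with the mean and SD as bars. In S100a9, S100a8 and Cxcr2 all SKF points sit below the vehicle median and 7, 4 and 5 of them below every vehicle point, Vehicle 1 is the highest vehicle point, and Tmem114 and Ddit4 show the opposite order.

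CXC chemokines include the ligands of Cxcr2 that attract neutrophils and others, such as Cxcl13, that attract lymphocytes. Of 10 tested, 9 had a negative log2 fold change and 3 were lower at an unadjusted p under 0.05: Cxcl13, Cxcl2 and Cxcl3, with 0 higher. The count was 1 without Vehicle 1 or Vehicle 7, and 5 without Vehicle 8 or SKF 3. Cxcl2, a ligand of Cxcr2, measured 2.05, 17.8 and 153 CPM in vehicle and 4.62, 9.05 and 19.3 in SKF. Its log2 fold change was -1.73 ± 0.70 (edgeR unadjusted p = 0.0272), and -0.71 without Vehicle 1. Cxcl3, of the same family, measured 4.81, 28.7 and 83.4 CPM in vehicle against 5.22, 14.1 and 32.6 in SKF, and both ranges overlapped widely.

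Among CC chemokines and their receptors, which draw monocytes and lymphocytes, 10 of 12 tested genes had a negative log2 fold change, 3 were lower at an unadjusted p under 0.05 and 0 were higher. The 3 were Ccl3, Ccl7 and Ccl12, and 1 was left without Vehicle 2. Ccl7 measured 21.2, 46.8 and 75.9 CPM in vehicle and 16.4, 31.8 and 45.7 in SKF (log2 fold change -0.49 ± 0.20, edgeR unadjusted p = 0.0193). Ccl3 had a log2 fold change of -1.33 ± 0.42, and of -0.60 without Vehicle 1, where it reached 77.5 CPM. Ccl2, the main monocyte chemoattractant, measured 40.1, 78.9 and 119 CPM in vehicle and 36.5, 68.0 and 79.0 in SKF. Its log2 fold change of -0.24 ± 0.19 had a 95% interval of -0.65 to 0.16 (edgeR unadjusted p = 0.220), and was -0.12 without Vehicle 2.

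In the interleukin-1 family, 11 of 14 tested genes had a negative log2 fold change, 3 were lower at an unadjusted p under 0.05 (Il1r1, Il1b and Il1rn) and 0 higher. The count of 3 became 1 without Vehicle 1, and 5 without Vehicle 5, Vehicle 8 or SKF 7. Il1b, the cytokine itself, measured 2.92, 6.88 and 91.1 CPM in vehicle and 1.97, 4.51 and 7.17 in SKF. The library at 91.1 was Vehicle 1, and the log2 fold change of -1.92 ± 0.61 (edgeR unadjusted p = 0.00481) was -0.57 without it. Il1r1, the signalling receptor of interleukin-1, measured 15.8, 20.9 and 26.3 CPM in vehicle and 13.6, 16.0 and 19.0 in SKF (log2 fold change -0.36 ± 0.12, edgeR unadjusted p = 0.00399). Here all 8 SKF libraries were under the vehicle median and no vehicle library stood far apart. Il1rn, the natural antagonist of the receptor, was lower too, with a log2 fold change of -1.07 ± 0.40.

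The interleukin-6 family gave 9 negative log2 fold changes among 12 tested genes, with 3 lower at an unadjusted p under 0.05 and 0 higher. The 3 were Il6r, Il11 and Il11ra1, and the count was 5 without Vehicle 3, Vehicle 8 or SKF 2, 6 without SKF 6 and 8 without Vehicle 5. Il6r, the ligand-binding receptor chain, measured 21.3, 22.9 and 30.5 CPM in vehicle and 17.3, 20.1 and 22.2 in SKF, where 7 libraries lay below every vehicle library (log2 fold change -0.26 ± 0.08, edgeR unadjusted p = 0.00370). Il11, a cytokine that shares the Il6st chain, had -0.79 ± 0.25. Il6 itself measured 1.26, 2.00 and 4.19 CPM in vehicle and 0.655, 1.66 and 2.39 in SKF, with a log2 fold change of -0.58 and a 95% interval of -1.25 to 0.08. Socs3, the feedback inhibitor of this pathway, had -0.32 ± 0.16 (edgeR unadjusted p = 0.0520).

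All 16 tested genes of TNF and NF-kB feedback had a negative log2 fold change, with a median of -0.26. At an unadjusted p under 0.05, 6 of them were lower and 0 higher, and 3 were lower without Vehicle 2. Tnf, a cytokine that activates NF-kB, measured 1.89, 2.62 and 3.69 CPM in vehicle and 1.33, 1.79 and 2.25 in SKF, with a log2 fold change of -0.54 ± 0.21 (edgeR unadjusted p = 0.0145). Nfkbie, an inhibitor that NF-kB switches on, measured 18.1, 21.1 and 26.0 CPM in vehicle and 14.8, 17.8 and 19.8 in SKF (log2 fold change -0.30 ± 0.08, edgeR unadjusted p = 0.00102). Both genes had all 8 SKF libraries under the vehicle median and 5 under every vehicle library.

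Toll-like receptors and scavenger receptors, which sense microbes and cell debris, gave 13 negative log2 fold changes among 13 tested genes and the highest share at an unadjusted p under 0.05, 6 lower (46.2%) and 0 higher. Without Vehicle 1 the 6 became 3. Tlr2 measured 13.2, 17.9 and 25.3 CPM in vehicle and 12.2, 14.2 and 15.5 in SKF (log2 fold change -0.42 ± 0.12, edgeR unadjusted p = 0.00207). Clec4d, a lectin receptor of myeloid cells, measured 1.02, 1.89 and 3.47 CPM in vehicle and 0.374, 0.910 and 1.76 in SKF, and had -0.99 ± 0.31. Cd14, the co-receptor for endotoxin, had -0.32 ± 0.15. All 8 SKF libraries were under the vehicle median for each of these 3 genes.

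The 13 tested genes of myeloid signalling and growth factor receptors all had negative log2 fold changes, with 5 lower at an unadjusted p under 0.05 (8 without SKF 1) and 0 higher. Beside Tec and Csf3r these were Csf2rb, Fgr and Cebpb. Csf2rb, the signalling chain shared by the receptors of granulocyte-macrophage colony-stimulating factor, interleukin-3 and interleukin-5, measured 36.3, 51.5 and 64.3 CPM in vehicle and 32.9, 37.8 and 43.8 in SKF. All 8 SKF libraries were under the vehicle median, and the log2 fold change was -0.38 ± 0.10 (edgeR unadjusted p = 6.59e-04). Fgr, a Src-family kinase of myeloid cells, had -0.36 ± 0.13, and Cebpb, a transcription factor of inflammatory gene expression, -0.41 ± 0.17. The normal control median of Csf2rb was 1.31 CPM.

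Markers of blood-derived macrophages had 16 negative log2 fold changes among 18 tested genes, with 6 lower at an unadjusted p under 0.05 and 0 higher. Arg1, the arginase of alternatively activated macrophages, measured 12.5, 20.0 and 32.1 CPM in vehicle and 9.03, 14.9 and 17.9 in SKF (log2 fold change -0.56 ± 0.18, edgeR unadjusted p = 0.00425). Mcemp1, a membrane protein of monocytes and mast cells, measured 6.73, 10.9 and 20.2 CPM in vehicle and 6.27, 7.52 and 10.9 in SKF, and had -0.58 ± 0.18. For Arg1 all 8 SKF libraries were under the vehicle median and 2 were under every vehicle library. For Mcemp1 these counts were 7 and 1. Cd68, a lysosomal protein of phagocytes, had -0.30 ± 0.17, and Ptprc, the leukocyte antigen CD45, -0.21 ± 0.14, with 95% intervals of -0.65 to 0.05 and -0.49 to 0.06.

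Genes that restrain immune responses were also on the lower side in SKF. In that list 14 of 15 tested genes had a negative log2 fold change, 5 were lower at an unadjusted p under 0.05 and 0 higher. Havcr2, the checkpoint receptor TIM-3, measured 3.57, 6.22 and 7.10 CPM in vehicle and 3.93, 4.32 and 4.62 in SKF (log2 fold change -0.47 ± 0.15, edgeR unadjusted p = 0.00355). Cd274, the checkpoint ligand PD-L1, had -0.72 ± 0.23. Hcar2, which is in none of the lists and is 1 of the 15 named lower genes, encodes a receptor for hydroxycarboxylic acids on myeloid cells. It measured 3.39, 12.7 and 68.6 CPM in vehicle and 4.49, 6.00 and 7.97 in SKF. Its log2 fold change was -1.54 ± 0.41, and -0.83 without Vehicle 1.

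The remaining immune lists differed among themselves. The Fc receptor and NADPH oxidase list had 9 negative values among 9 tested genes and 3 lower at an unadjusted p under 0.05, among them Ncf4 and Ncf1, subunits of the phagocyte oxidase, but 0 without Vehicle 1 and 1 without Vehicle 7, SKF 3 or SKF 4. Leukocyte adhesion genes had 13 negative values of 14, with 4 lower, 2 without Vehicle 7 and 7 without Vehicle 6 or SKF 5. Complement genes had 12 negative values of 15, with C1r and C3 lower. C1r, a protease that starts the classical pathway, measured 36.5, 43.1 and 48.9 CPM in vehicle and 29.0, 32.3 and 39.2 in SKF (log2 fold change -0.35 ± 0.10, edgeR unadjusted p = 0.00190). Disease-associated phagocyte genes had 16 negative values of 20, and MHC class II genes 8 of 8, yet 0 of either list reached an unadjusted p under 0.05. Their medians were -0.14 and -0.11, and -0.08 and -0.04 without SKF 3.

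The interferon response list had a median of 0.00, with 10 negative values among 21 tested genes and 2 lower, Ifit3 and Ifi44. Ifit3 had -1.03 ± 0.35, and -0.59 without Vehicle 1. Homeostatic microglia genes had 9 negative values of 11 and a median of -0.09 (-0.03 without SKF 1), and only Selplg, the ligand of P-selectin, was lower at an unadjusted p under 0.05. Aif1, which encodes the microglial marker Iba1, measured 7.12, 11.2 and 13.4 CPM in vehicle and 6.65, 11.2 and 19.0 in SKF (log2 fold change 0.17 ± 0.16, and 0.05 without SKF 8). Lymphocyte markers were mostly too low to test: 4 of 15 T and NK cell genes and 2 of 7 B cell genes passed the filter, and 0 of the 6 reached an unadjusted p under 0.05.

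**Figure D3:**
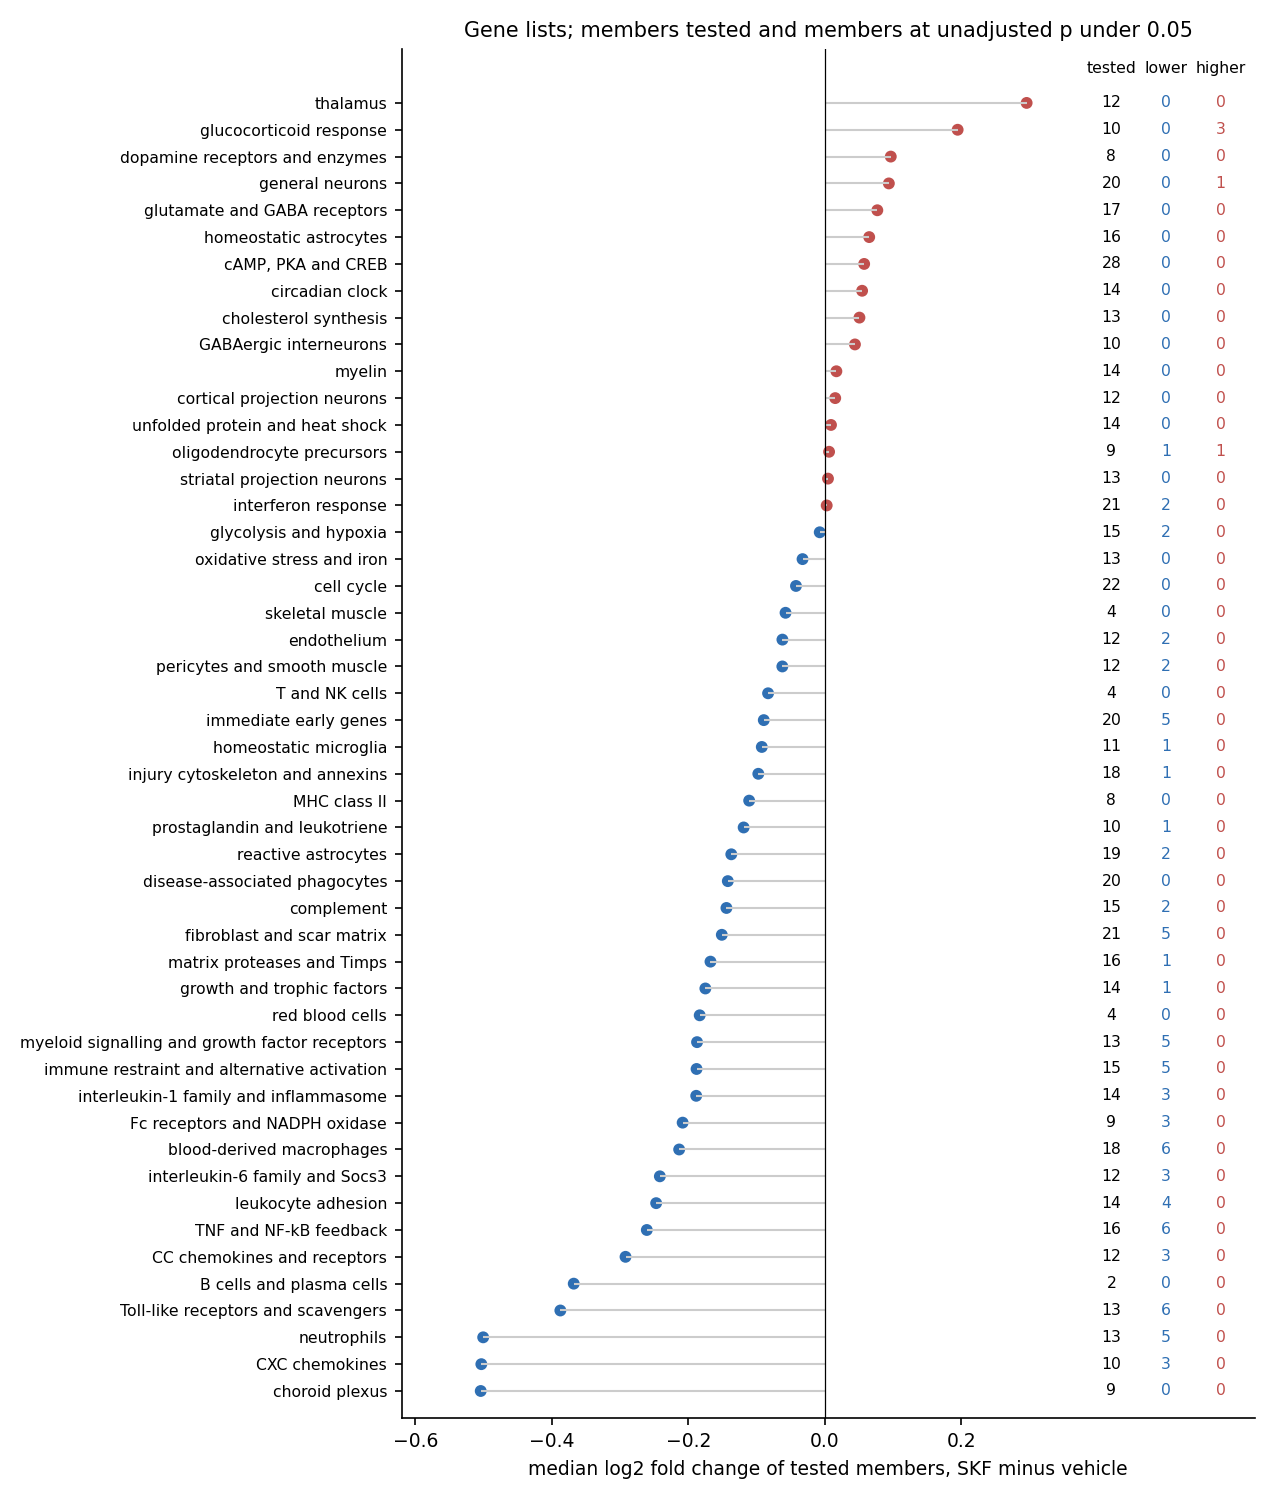
Points give the median log2 fold change, SKF minus vehicle (x axis), of the tested members of each of the 49 gene lists (y axis), with the number tested and the numbers lower and higher at an unadjusted p under 0.05 at the right. Choroid plexus is lowest, with 0 of 9 members at that level, followed by CXC chemokines, neutrophils and Toll-like receptors. Their medians are -0.50, -0.50, -0.50 and -0.39. The thalamus and glucocorticoid lists are at the high end, at 0.30 and 0.19.

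Library values moved with these immune results. In 13 of the 20 immune lists Vehicle 5 had the lowest score of the vehicle group, in 10 Vehicle 1 or 2 had the highest, and in 5 Vehicle 7 had. The score SD was larger in vehicle than in SKF for 37 of the 49 lists. Without Vehicle 1, 37 of 231 immune genes were lower at an unadjusted p under 0.05, without Vehicle 7 the number was 39, and without Vehicle 5 it was 67. Red blood cell genes, a measure of blood in the sample, had 4 negative values among 4 tested genes, with a median of -0.18 (-0.06 without Vehicle 2), and their scores ran from 5.99 to 7.47 in vehicle and from 5.75 to 7.17 in SKF. Their part in the immune results was not tested.

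Matrix and scar genes mostly had negative values too. Of 21 tested fibroblast and scar matrix genes, 18 had a negative log2 fold change, 5 were lower at an unadjusted p under 0.05 (3 without Vehicle 7) and 0 higher, with a median of -0.15. Col4a2, a chain of the collagen of basement membranes, measured 143, 190 and 196 CPM in vehicle and 146, 162 and 181 in SKF (log2 fold change -0.18 ± 0.06, edgeR unadjusted p = 0.00565). Vehicle 5 held the lowest value of the vehicle group, and the other 7 vehicle libraries were at 178 or above. Thbs1, thrombospondin-1, measured 99.9, 128 and 183 CPM in vehicle and 49.1, 87.6 and 130 in SKF, and had -0.57 ± 0.21. All 16 tested matrix proteases and Timps had negative values, with a median of -0.17 (-0.11 without Vehicle 2) and 1 gene, Mmp14, lower at an unadjusted p under 0.05. That level was reached in the lower direction by 2.82% of all genes tested.

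The reactive and homeostatic astrocyte lists had medians of opposite sign. Reactive astrocyte genes had 16 negative values of 19 and a median of -0.14 (-0.06 without Vehicle 2), and the 2 that were lower, Srgn and C3, are also genes of leukocytes and of complement. Gfap, the astrocyte intermediate filament, measured 2640.1, 3449 and 4275 CPM in vehicle and 3460.1, 3592 and 3947 in SKF. All 8 SKF libraries lay inside the vehicle range and above its median, and the log2 fold change of 0.08 ± 0.11 had a 95% interval of -0.15 to 0.31 (0.03 without Vehicle 3). Homeostatic astrocyte genes had 2 negative values of 16 and a median of 0.07 (0.02 without Vehicle 1), with 0 at an unadjusted p under 0.05.

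Vessel genes were divided. Endothelial genes had 7 negative values of 12, with Kdr and Cdh5 lower at an unadjusted p under 0.05, and pericyte genes 10 of 12, with Anpep and Pdgfrb lower. The share lower at that level was 2.82% over all genes tested. Anpep had medians of 3.26 CPM in normal control and 22.5 in vehicle, whereas Pdgfrb had 50.8 and 55.0. Which cells the Anpep RNA came from was not tested. Without Vehicle 8 the log2 fold change of Cdh5, the cadherin of endothelial junctions, was -0.13 in place of -0.20, and that of Pdgfrb, the pericyte PDGF receptor, -0.12 in place of -0.18. Kdr, the main receptor of VEGF-A, measured 18.1, 28.3 and 38.3 CPM in vehicle and 18.2, 21.8 and 27.1 in SKF (log2 fold change -0.36 ± 0.12, edgeR unadjusted p = 0.00607). Choroid plexus genes had 9 negative values of 9 and a median of -0.50, which was -0.30 without Vehicle 2, and 0 of them reached an unadjusted p under 0.05. Their scores ran from 4.27 to 6.02 in vehicle and from 3.04 to 5.34 in SKF.

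No gene reached an unadjusted p under 0.05 in the lists of dopamine receptors and enzymes (8 tested) or striatal projection neurons (13 tested). Nor did any gene of the cyclic AMP, protein kinase A and CREB list (28 tested). Drd1 measured 8.95, 33.4 and 62.6 CPM in vehicle and 20.8, 33.9 and 75.7 in SKF, with a log2 fold change of 0.22 ± 0.49 and a 95% interval of -0.80 to 1.23. Without SKF 8, the highest SKF library, the value was -0.00. Drd2, the receptor of the other dopamine receptor family, measured 4.98, 24.6 and 45.3 CPM in vehicle and 14.7, 20.9 and 50.1 in SKF (log2 fold change 0.00 ± 0.55, and -0.25 without SKF 8). Drd5 was under the filter, with 1 to 8 counts per library in vehicle (median 5) and 2 to 8 in SKF (median 6).

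Striatal markers spread widely within both groups. Ppp1r1b, the DARPP-32 protein that protein kinase A phosphorylates, measured 131, 395 and 513 CPM in vehicle and 330, 390 and 749 in SKF (log2 fold change 0.29 ± 0.42, and 0.13 without SKF 8), and Penk, the enkephalin precursor, had 0.15 ± 0.48, and -0.00 without SKF 8. SKF 8 was the highest SKF library for Drd1, Drd2, Ppp1r1b and Penk, and Vehicle 4 the lowest and Vehicle 8 the highest vehicle library of the striatal score. That score ran from 4.96 to 6.84 in vehicle and from 5.86 to 7.02 in SKF. The amount of striatum in each sample was not tested.

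Immediate early genes, which neurons and other cells switch on within minutes of a stimulus, had 14 negative values among 20 tested genes and a median of -0.09 (-0.05 without SKF 8). At an unadjusted p under 0.05, 5 were lower and 0 higher: Egr1, Ier3, Egr2, Npas4 and Btg2. Egr1, a zinc-finger transcription factor, measured 49.6, 65.7 and 92.3 CPM in vehicle and 48.4, 53.3 and 61.4 in SKF, with a log2 fold change of -0.30 ± 0.11 (edgeR unadjusted p = 0.0126). Ier3, a target of NF-kB, measured 9.61, 17.1 and 27.3 CPM in vehicle and 10.7, 11.9 and 15.9 in SKF, and had -0.49 ± 0.19. For both genes every SKF library was under the vehicle median. Arc, a synaptic gene of active neurons, measured 15.0, 28.7 and 54.0 CPM in vehicle and 14.4, 28.6 and 44.6 in SKF. Its log2 fold change was -0.03, with a 95% interval of -0.51 to 0.46, and it was 0.16 without Vehicle 8. Fos, another such transcription factor, had -0.29 ± 0.15, and -0.17 without Vehicle 2. Egr1 and Arc stood at medians of 195 and 144 CPM in normal control.

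**Figure D4:**
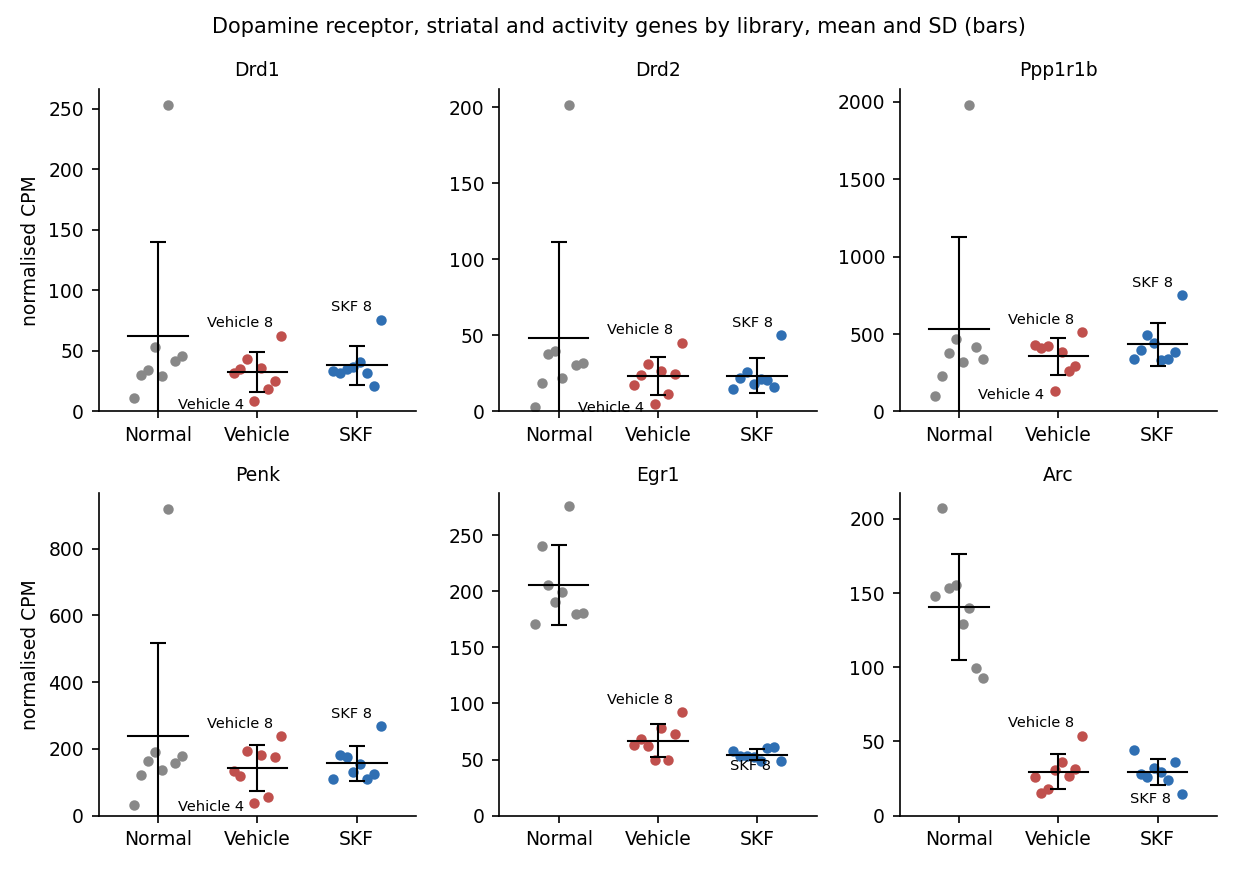
Normalised CPM (y axis) of 6 genes in each library of the 3 groups (points), with mean and SD as bars. For Drd1, Drd2, Ppp1r1b and Penk the vehicle and SKF points overlap and SKF 8 is the highest SKF point, while Egr1 in SKF lies between 48.4 and 61.4 CPM, under the vehicle median of 65.7.

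General neuronal genes had 2 negative values among 20 tested and a median of 0.09, which was 0.03 without Vehicle 2. Eno2, the neuronal enolase, was the 1 gene higher at an unadjusted p under 0.05. Eno2 measured 821, 917 and 995 CPM in vehicle and 895, 1041 and 1138 in SKF, where 6 libraries lay above every vehicle library (log2 fold change 0.19 ± 0.06, edgeR unadjusted p = 0.00298). Rbfox3, the neuronal nuclear antigen NeuN, had 0.09 ± 0.10, and 0.01 without Vehicle 2. Glutamate and GABA receptor genes had 2 negative values of 17, with a median of 0.08, which was 0.01 without Vehicle 2, the vehicle library with the lowest general neuron score. All 12 thalamus markers had positive values, with a median of 0.30, and of 0.07 without SKF 4.

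Myelin genes had a median of 0.02 and 0 of 14 at an unadjusted p under 0.05. Mbp, myelin basic protein, measured 4679, 5034 and 7963 CPM in vehicle and 3418, 4547 and 6256 in SKF (log2 fold change -0.24 ± 0.12), and -0.14 without Vehicle 2. Oligodendrocyte precursor genes gave 1 in each direction, Pdgfra lower at -0.21 ± 0.09 and Olig2 higher at 0.21 ± 0.10. Cell cycle genes (0 of 22), circadian clock genes (0 of 14) and cholesterol synthesis genes (0 of 13) had no member at that level.

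Of the 49 lists, the glucocorticoid response had the most members higher in SKF at an unadjusted p under 0.05. Of 10 tested genes 9 had a positive log2 fold change, 3 were higher at an unadjusted p under 0.05 and 0 lower, with a median of 0.19. Of all genes tested, 2.14% were higher at that level. Ddit4, an inhibitor of the growth kinase mTOR that glucocorticoids and stress switch on, measured 36.1, 44.7 and 56.5 CPM in vehicle and 47.2, 54.7 and 66.6 in SKF, with 63.3 at the median of normal control. All 8 SKF libraries were above the vehicle median, and the log2 fold change was 0.31 ± 0.09 (edgeR unadjusted p = 0.00122, adjusted p = 0.656). Klf9, a transcription factor induced by the glucocorticoid receptor, measured 65.1, 88.9 and 102 CPM in vehicle and 91.2, 100.2 and 125 in SKF (log2 fold change 0.24 ± 0.08). Sgk1, a kinase induced by glucocorticoids, had 0.42 ± 0.18, and Fkbp5, a co-chaperone of their receptor, 0.19 ± 0.13. The list score ran from 5.44 to 5.89 in vehicle and from 5.74 to 6.14 in SKF, and all 8 SKF scores were above the vehicle median.

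**Figure D5:**
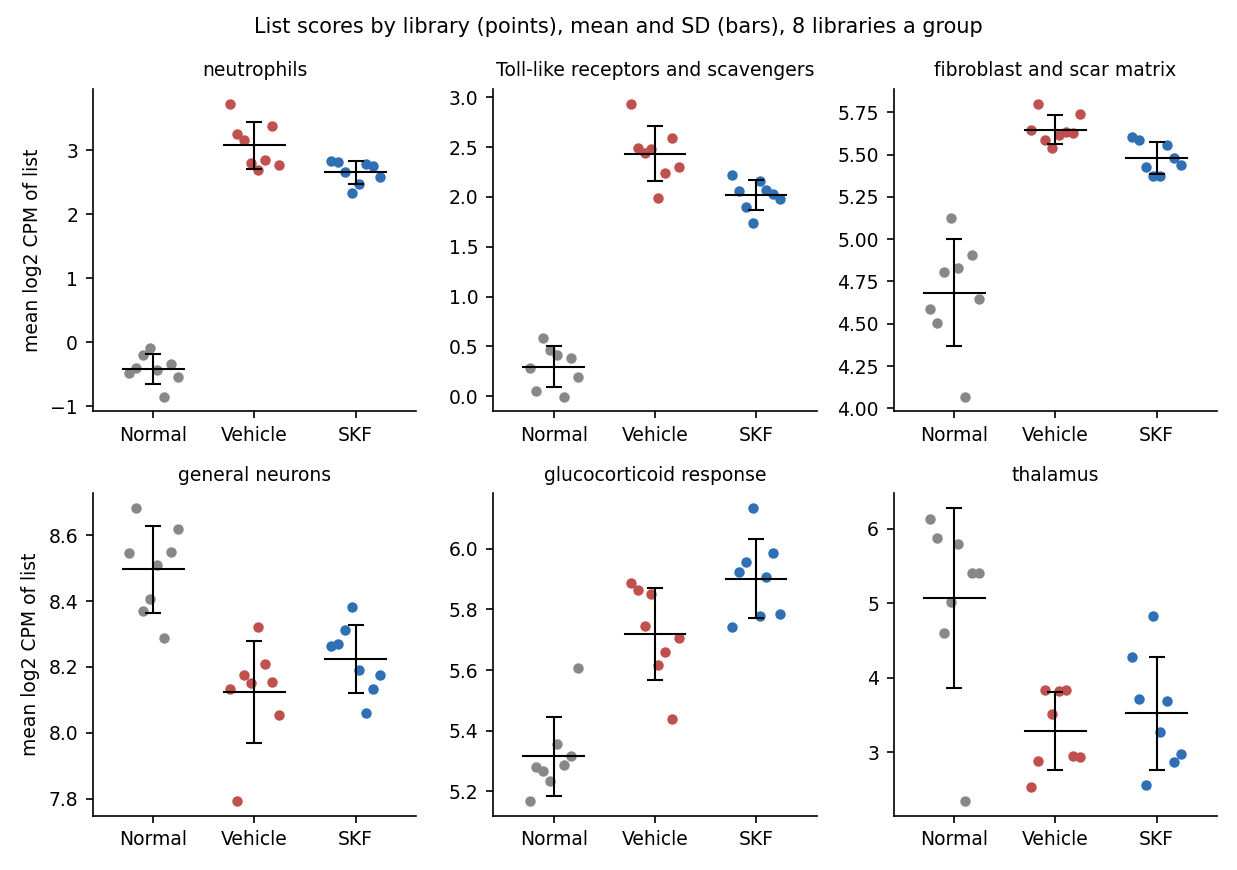
The score of 6 gene lists (y axis, mean log2 CPM of the tested members) in each library of the 3 groups, with mean and SD as bars. Neutrophil scores run from 2.69 to 3.73 in vehicle and from 2.33 to 2.84 in SKF, and glucocorticoid response scores from 5.44 to 5.89 and from 5.74 to 6.14.

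The other named genes with the smallest p values come from many roles. Among those lower in SKF, Msto1, which acts in mitochondrial shape, measured 16.4, 18.5 and 19.6 CPM in vehicle and 14.8, 15.4 and 15.9 in SKF, so that the groups did not overlap (log2 fold change -0.25 ± 0.07, edgeR unadjusted p = 0.00102). Bmp7, a bone morphogenetic protein of the meninges and choroid plexus, measured 8.48, 10.9 and 13.5 CPM in vehicle and 5.52, 6.98 and 9.17 in SKF (log2 fold change -0.62 ± 0.17). Mycn, a Myc-family transcription factor, had -0.53 ± 0.14, Maml1, a Notch co-activator, -0.32 ± 0.09, Polk, a DNA polymerase that copies past damage, -0.34 ± 0.09, and Zfp36l2, an RNA-binding protein that destabilises transcripts, -0.30 ± 0.08. Each of the 4 had at least 7 of 8 SKF libraries under the vehicle median. Crybg2 (-0.43 ± 0.10) and Ifit1bl (-0.83 ± 0.22) complete the 15.

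Among those higher in SKF, Tshz2, a zinc-finger transcription factor, measured 28.4, 34.4 and 49.5 CPM in vehicle and 41.5, 50.2 and 54.6 in SKF, with a log2 fold change of 0.44 ± 0.13 (edgeR unadjusted p = 0.00173). Fzd9, a Wnt receptor, measured 3.58, 6.62 and 10.7 CPM in vehicle and 6.73, 10.6 and 15.5 in SKF, a log2 fold change of 0.55 ± 0.17. Both genes had all 8 SKF libraries above the vehicle median and 4 above every vehicle library. Dkk3, a secreted protein of the Dickkopf family, had 0.30 ± 0.08. Lcmt1 and Ppme1, which add and remove the methyl group of the catalytic subunit of protein phosphatase 2A, had 0.19 ± 0.06 and 0.20 ± 0.06. Sesn1, a sestrin that restrains mTOR, had 0.21 ± 0.06. Fbxo6, Mblac2, Gmpr, Klhdc3 and Asb6 had log2 fold changes between 0.18 and 0.27.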

How the data were processed

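RNA from 24 rat brain samples, 3 groups of 8 read from the sample titles, was sequenced after poly(A) selection with a directional kit, per the labels. The authors deposited read counts per gene (raw whole numbers) and a TPM table. The submitters' processing notes name build mRatBN7.2, and the aligner and the counter were not given in the sources used here. Of 29539 genes, 6451 have an Ensembl identifier alone and 0 of these matched a symbol, and 2397 are numbered copies, whose reads may be split.

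The test on counts was that of edgeR 4.0.16 (run in R 4.3.3; TMM, filterByExpr by group, robust quasi-likelihood F test) on all 24 libraries, 21 residual degrees of freedom, contrast SKF minus vehicle, with Benjamini-Hochberg adjustment over 14421 genes. CPM are TMM-normalised, and list scores use a prior count of 2. The biological coefficient of variation came to 16.2% at total counts of 8911339 to 12383368 per library. Library measures were compared by exact permutation over all 12870 assignments. The scripts were tested on simulated data. The chi-square per degree of freedom between any pair of the 16 SKF and vehicle libraries was at least 6.04, so none of these was a duplicate of another. Normal control libraries were not part of this check.

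The rule for named genes took, among tested genes with real symbols and mean log2 CPM not under 0, the 15 with the smallest p in each direction, the 2 with the smallest p in each of 49 lists (724 genes, 674 in the table, 613 tested), and a fixed set of receptors, cytokines and markers. Other list members, and Rarg and Fcgr2a_2, were chosen after their values were seen. A few genes that the rule names are not reported here, though they stay in the fit and in the counts. The comparison, the lists and the rule were chosen with earlier results of these data known. Each list is described by counts and its median, with no test. The shares over all genes tested, 2.82% lower and 2.14% higher, are the background for every list and are not repeated beside each.

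The alternatives tried were no filter, DESeq2 1.42.0, edgeR with RLE size factors, CPM of at least 1 in 8 libraries, only SKF and vehicle libraries, normal control 4 and 6 left out, voom with sample weights and limma 3.58.1 on log2 TPM (pseudocount 1 or 0.1, genes reaching a TPM of 0.5 in 8 libraries), the replicate number as a block, and each SKF or vehicle library left out in turn. Normal Control 4 had a skeletal muscle score of 8.37, against a group median of 1.57. Normal Control 6 had a striatal score of 8.76 (median 6.44). Its thalamus and choroid plexus scores were 2.34 and 0.13 (medians 5.41 and 5.03). SciPy 1.17.1 and pandas 2.3.3 were run in Python 3.11.15, and figures drawn with Matplotlib 3.10.9. Promoters are RefSeq's on GRCr8, matched by symbol.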

Additional observations from a re-analysis of the deposited data

Results flagged for a closer look

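In 25 of 264 sets of 8 values (9.47%), 1 library stood apart from the other 7 by Dixon's test. Chance gives about 5% for independent sets of normally distributed values. CPM of genes that vary together and were mostly chosen by small p need not meet this, so no excess over chance can be read. The sets were the tested named genes reported here and the library measures in vehicle and in SKF. Vehicle 1 accounted for 8, each a gene of inflammation at its highest: S100a9 at 40.2 CPM, Ifit1bl at 18.8, Hcar2 at 68.6, Il6r at 30.5, Ccl3 at 77.5, Il1b at 91.1, Ifit3 at 56.4 and Cxcl2 at 153. In vehicle, the next highest library was at 13.5 CPM for Il1b and at 32.2 for Cxcl2.

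SKF 8 accounted for 6. Of these, 5 were the highest values of striatal genes in SKF: Ppp1r1b at 749 CPM, Pdyn at 70.5, Drd1 at 75.7, Penk at 269 and Drd2 at 50.1. The sixth was Maoa, which degrades dopamine, at its highest of 82.0.

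SKF 1 was highest for Mcemp1 at 10.9 CPM, Ifi44 at 7.88 and Cxcl13 at 1.95. Vehicle 2 was highest for Mbp at 7963 and Slc4a1, the red cell anion exchanger, at 3.00, and Vehicle 5 was lowest for Col4a2 at 143 and Col4a1 at 179. Single values were Sst at 105 in Vehicle 7, Alox15 at 8.41 in SKF 6, Mbp at 6256 in SKF 7 and Ramp3 at 25.0 in SKF 4, each the highest of its group.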

How the results depend on the processing

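The count of genes with an adjusted p under 0.05 was 0 in 25 of 26 alternatives and 6 with DESeq2, where Tec, S100a9 and Tmem114 passed. Leaving out 1 library at a time it stayed 0, and the count at an unadjusted p under 0.05 ran from 556 (without SKF 4) to 927 (without SKF 6). Higher genes at an unadjusted p under 0.05 numbered 189 on log2(TPM + 1) and 185 on log2(TPM + 0.1), against 308, and lower genes 565 and 484. With no filter 961 of 18951 genes reached an unadjusted p under 0.05, and voom gave 875. In the 231 immune genes, the number lower ran from 37 (without Vehicle 1) to 67 (without Vehicle 5).

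The numbers 1 to 8 recur in both groups, and whether they pair the samples is not stated. Correlations of same-numbered deviations ran from -0.124 to 0.0783, and 0 of 8 SKF libraries matched their own number best. No shared effect of the number was thus visible, but such values cannot show whether samples were matched by design. With the replicate block, 587 genes had an unadjusted p under 0.05 (339 lower, 248 higher), 0 had an adjusted p under 0.05, and 48 immune genes were lower. The number lower was then 1 of 10 CXC chemokines, against 3, and 3 of 16 TNF and NF-kB genes, against 6.

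The sign of the median was the same under all 26 alternatives for 39 of 49 lists. The exceptions were interferon, T and NK cells, striatal and cortical neurons, myelin, oligodendrocyte precursors, muscle, cell cycle, unfolded protein and glycolysis, whose medians lay near 0. Of 132 tested named genes, 127 kept their sign, and Drd1, Drd2, Penk, Arc and Ighm did not. The cause of these differences was not tested. The median SE of a log2 fold change was 0.0984 over all genes tested.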

Other observations

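The lists of glycolysis and hypoxia and of injury cytoskeleton and annexins were not described above. Among 15 tested glycolysis and hypoxia genes, 2 were lower at an unadjusted p under 0.05 and 0 higher: Slc16a3, which exports lactate, and Hk2, hexokinase 2. Slc16a3 measured 10.7, 18.1 and 29.7 CPM (lowest, median and highest) in vehicle and 11.0, 14.7 and 17.3 in SKF, with a log2 fold change of -0.45 ± 0.19. Hk2 had -0.30 ± 0.12, and the list's median was -0.01. Of 18 injury cytoskeleton and annexin genes 16 had a negative log2 fold change and 1 was lower, the tubulin Tuba1c, at -0.25 ± 0.10 and medians of 89.8 CPM in vehicle, 80.8 in SKF and 7.91 in normal control. Beside these lists and those that follow, 2.82% of all genes tested were lower at an unadjusted p under 0.05.

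Growth and trophic factors had 9 negative values of 14, and Pdgfa, a growth factor for oligodendrocyte precursors, was lower at -0.25 ± 0.09, beside its receptor Pdgfra at -0.21 ± 0.09. Alox15, a lipoxygenase, was the 1 of 10 prostaglandin and leukotriene genes lower at an unadjusted p under 0.05, at -0.49 ± 0.23. Oxidative stress and iron genes (0 of 13) and unfolded protein genes (0 of 14) had none at that level.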
